A study of Mus musculus with 4 samples.

Results

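Auts2 and Gse1 stood out among mouse genes for the number of OTX2 regions assigned to them along a differentiation path to definitive endoderm (DE), and they are described here beside Macrod2 and Asic2, a pair of other long genes. All 4 genes were chosen with the region counts of these same lists known, Auts2 and Gse1 for their counts. Counts, densities and ratios between the genes are therefore a description and were not tested. Together the 4 genes held 165 of the 34616 regions that could be assigned to a protein-coding gene, out of 39615 regions in all and 21887 genes. A region belongs to a gene if its midpoint falls in the span of that gene, or in the shortest of several such genes. A midpoint outside every gene was given to the closest gene end, up to 100 kb away. The territory of a gene is the set of positions that this rule gives to it.

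The regions were mapped by CUT&RUN, in which an antibody directs a nuclease to a protein on chromatin and the DNA cut loose around it is sequenced. OTX2 carried an HA tag in lines labelled OTX2-dTAG-EGFP, of BL6/129 hybrid genotype. Mouse epiblast stem cells (EpiSCs) grown with NVP (175 nM), FGF2 (12.5 ng/ml) and Activin A (20 ng/ml) were taken to a primitive streak (PS) stage in 16 h with 40 ng/ml Activin A and 3 uM CHIR, and to DE in a further 24 h with 100 ng/ml Activin A and 100 nM LDN. The 4 libraries described by the labels are all of the PS stage, 3 with anti-HA, from the lines 7H, 7H1 and 7H2, and 1 with IgG, from line 7H2. The libraries behind the regions of other stages, with their number and antibody, are not described here. The values are 4 lists of region coordinates, named for the stages in which the regions were found: PS only (1634 regions), PS and DE (6157), DE only (31445) and EPI and PS (379), where EPI is not spelled out. No list has a height or a value per library, so depth and the spread between libraries are unknown, the identity of the cells could not be checked against marker genes, and every interval below covers counting error only.

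OTX2 is a homeodomain transcription factor of the early anterior embryo, and the core DNA word read by homeodomains of its class is TAATCC. The AUTS2 protein is a nuclear factor found with a variant Polycomb repressive complex, PRC1, in which casein kinase and the acetyltransferase p300 accompany it, and its human gene is linked to neurodevelopmental disorders. GSE1 is a coiled-coil protein that copurifies with corepressor complexes of the histone demethylase LSD1, CoREST and histone deacetylases. MACROD2 removes ADP-ribose from modified proteins, and its gene is among the longest in mammals. ASIC2 is a subunit of proton-gated sodium channels, best known from neurons.

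Auts2 lies on chromosome 5 (131437333 to 132543220, mm10), spans 1106 kb and has a territory of 1271 kb. Gse1 lies on chromosome 8 (120228501 to 120581383), spans 353 kb and has a territory of 378 kb. Macrod2 lies on chromosome 2 (140395303 to 142392966), with a span of 1998 kb and a territory of 2087 kb, and Asic2 on chromosome 11 (80880163 to 81968396), with 1088 kb and 1127 kb. In the promoter table used here, from RefSeq (GRCm38.p6, the assembly of mm10), Gse1 and Macrod2 are on the plus strand and Asic2 on the minus strand. The table holds windows from 250 bases before to 50 bases after an annotated start for these 3 of the 4 genes. The annotation gives gene spans only, so exons and introns were not told apart.

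Of the 165 regions, 1 lay inside such a window, and its full sequence can therefore be shown. It is a DE only region of 152 bp at the start of Macrod2 (chr2:140395267-140395418), which ended 12 bases before one annotated start and covers the first base of the gene span. In the window below (chr2:140395180-140395479, plus strand, 5′ to 3′) capitals mark the bases of the region.
Macrod2 window: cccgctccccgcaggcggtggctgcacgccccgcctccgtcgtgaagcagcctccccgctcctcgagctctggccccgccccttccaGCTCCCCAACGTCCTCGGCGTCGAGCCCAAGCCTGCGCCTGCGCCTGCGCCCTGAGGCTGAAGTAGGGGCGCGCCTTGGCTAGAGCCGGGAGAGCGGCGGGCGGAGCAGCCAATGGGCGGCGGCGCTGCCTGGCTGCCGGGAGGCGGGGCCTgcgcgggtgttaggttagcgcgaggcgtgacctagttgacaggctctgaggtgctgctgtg
Over all genes, 9.57% of DE only regions overlapped a window of the same kind at any gene. So did 7.20% of PS and DE, 4.78% of PS only and 4.05% of EPI and PS regions, leaving out chromosomes without windows. The count of 1 covers only windows of Macrod2, Gse1 and Asic2, and Auts2 has none, so it cannot be set against these shares.

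Gse1 has 3 annotated windows, and they are of interest because 7 of its regions had their midpoint within 10 kb of the first of these starts, more than at any other annotated start of the 3 genes. All 3 starts lie well inside the gene span, the first at 120488866. The lower end of the span, at 120228501, is the upstream end on the plus strand and has no window. The region nearest to that end lay 11.6 kb outside the gene. None of the windows overlapped a region. The window of the first (chr8:120488616-120488915) had a PS and DE region 466 bases upstream of its start and holds no TAATCC on either strand. The window of the second (chr8:120535607-120535906) holds 1 TAATCC, in capitals below, and the nearest region lay 2598 bases downstream of its start. Both are printed 5′ to 3′ on the plus strand.
Gse1 first window: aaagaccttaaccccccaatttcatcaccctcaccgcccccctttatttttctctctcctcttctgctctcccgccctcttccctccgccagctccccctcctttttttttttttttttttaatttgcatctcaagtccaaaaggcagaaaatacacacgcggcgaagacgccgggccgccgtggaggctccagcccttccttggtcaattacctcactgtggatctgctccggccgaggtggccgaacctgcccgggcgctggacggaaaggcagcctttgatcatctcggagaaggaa
Gse1 second window: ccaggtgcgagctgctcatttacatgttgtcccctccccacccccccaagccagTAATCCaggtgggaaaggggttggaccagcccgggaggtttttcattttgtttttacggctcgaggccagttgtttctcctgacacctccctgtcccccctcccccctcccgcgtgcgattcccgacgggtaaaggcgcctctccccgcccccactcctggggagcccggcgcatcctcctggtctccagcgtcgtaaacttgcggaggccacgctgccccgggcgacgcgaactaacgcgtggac
TAATCC or its reverse complement GGATTA was present in 7.06% of the 32851 windows of 300 bases in the table. In the third Gse1 window and in those of Macrod2 and Asic2 these letters were not found. The Asic2 starts were far from regions: the nearest lay 18605 bases from one and 41532 bases from the other, and no region had its midpoint within 10 kb of either.

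Gse1 was the most densely occupied of the 4 genes, followed by Auts2, Asic2 and Macrod2. Gse1 held 36 regions, which is 9.52 per 100 kb of territory (exact 95% Poisson interval 6.67 to 13.2). Auts2 held 60 regions, 4.72 per 100 kb (3.60 to 6.08). Asic2 held 36 regions, 3.19 per 100 kb (2.24 to 4.42), and Macrod2 held 33 regions, 1.58 per 100 kb (1.09 to 2.22). These intervals treat regions as independent, which regions in tight groups are not, so they are too narrow and no separation of the genes is read from them. Over all gene territories the density was 1.81 regions per 100 kb, so that Gse1 stood 5.25 times, Auts2 2.60 times and Asic2 1.76 times above it and Macrod2 at 0.872 times.

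Density depended in part on how regions in tight groups and narrow regions were counted, mostly for Gse1. Counting regions within 5 kb of each other as 1 gave 4.49 per 100 kb for Gse1 and 3.78 for Auts2, against 2.66 for Asic2 and 1.34 for Macrod2. With regions of at least 150 bp only, the densities were 2.64 for Gse1, 2.12 for Auts2, 1.42 for Asic2 and 0.527 for Macrod2. Both settings left the 4 genes in the order given above.

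**Figure D1:**
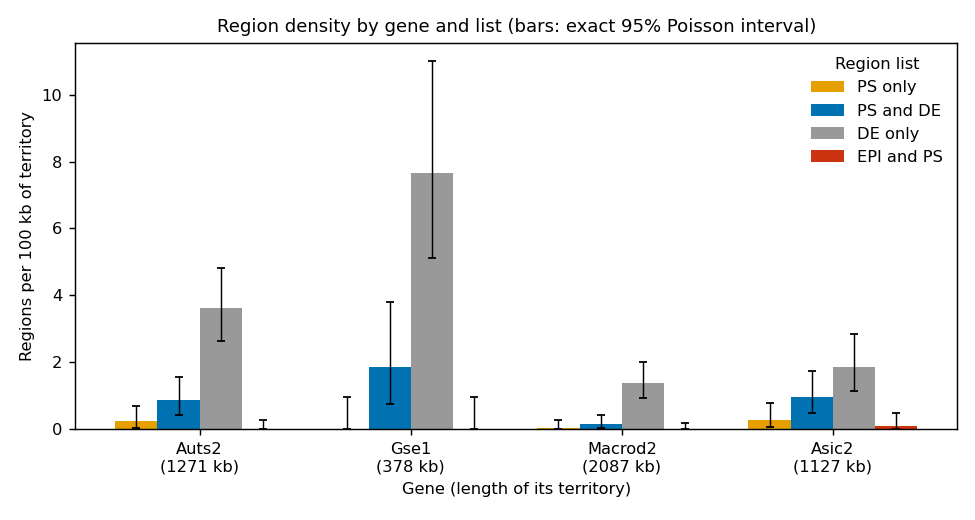
Regions per 100 kb of territory (vertical axis) for each gene and each of the 4 region lists, with exact 95% Poisson intervals as error bars. The DE only bar of Gse1, at 7.67, is the tallest, and the PS and DE bars of Auts2 (0.866) and Asic2 (0.976) are of similar height.

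In the DE only list Gse1 had 29 regions, 7.67 per 100 kb (5.13 to 11.0), and Auts2 had 46, 3.62 per 100 kb (2.65 to 4.83). Macrod2 had the same number as Gse1, 29, spread over a much longer territory, for a density of 1.39 per 100 kb. Asic2 had 21, a density of 1.86 (1.15 to 2.85). No gene held more DE only regions than Auts2, and 50.1% of all protein-coding genes had at least 1. The density of Gse1 was 5.52 times that of Macrod2 and 4.11 times that of Asic2, and the density of Auts2 was 2.61 and 1.94 times theirs. In the PS and DE list the same ratios were 12.9 and 1.90 for Gse1 and 6.02 and 0.887 for Auts2, larger than for DE only against Macrod2 and smaller against Asic2.

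Regions bound in both stages did not single out Auts2 against Asic2. Both genes held 11 PS and DE regions, the highest count of any gene, at 0.866 per 100 kb (0.432 to 1.55) in Auts2 and 0.976 (0.487 to 1.75) in Asic2. Gse1 held 7, or 1.85 per 100 kb (0.744 to 3.81), and Macrod2 held 3, or 0.144 (0.0296 to 0.420). At least 1 PS and DE region was found at all 4 genes and at 16.3% of all genes. For every gene but Macrod2 the density in this list was a larger multiple of the mean over all territories than in the DE only list: 6.56 against 5.33 times in Gse1, 3.07 against 2.52 times in Auts2 and 3.46 against 1.30 times in Asic2. In Macrod2 it was 0.510 against 0.966 times.

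Streak-specific regions were few. Auts2 and Asic2 had 3 PS only regions each, Macrod2 had 1 and Gse1 had 0, where 5.60% of all genes had at least 1. The only EPI and PS region lay in Asic2 (81771402 to 81771487), and 1.45% of genes had one. A count of 0 in Gse1 allows up to 0.975 regions per 100 kb in either list (the upper end of its exact interval), which is above the values of all 3 other genes, so an absence there was not detectable. With any of the 4 lists counted, 54.7% of genes had at least 1 region.

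By share of regions, Auts2 and Gse1 were close to the lists as a whole. DE only regions made up 76.7% of those at Auts2 (95% Wilson interval 64.6 to 85.6), 80.6% of those at Gse1 (65.0 to 90.2) and 87.9% of those at Macrod2 (72.7 to 95.2), beside 79.4% of all assigned regions. At Asic2 they were 58.3% (42.2 to 72.9). PS and DE regions made up 18.3% of the regions of Auts2 (10.6 to 29.9), 19.4% at Gse1 (9.75 to 35.0), 9.09% at Macrod2 (3.14 to 23.6) and 30.6% at Asic2 (18.0 to 46.9), beside 15.6% of all. Regions at 1 gene are not independent, so no test was run on these shares. The counts at Auts2 and Gse1 were high in both lists that include DE, in about the proportion of the lists themselves.

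**Figure D2:**
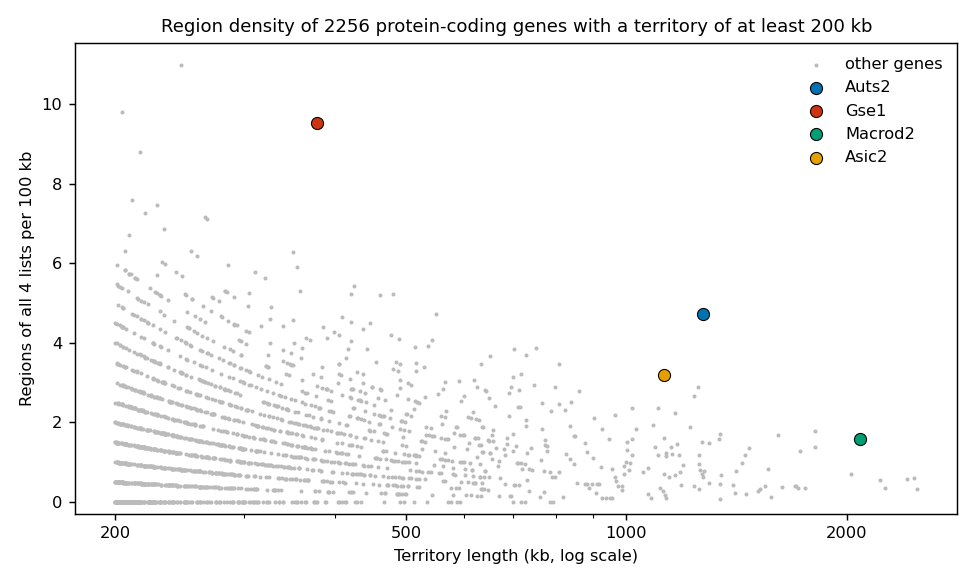
Regions of all 4 lists per 100 kb (vertical axis) against territory length in kb (log scale) for the 2256 protein-coding genes with a territory of at least 200 kb, one point per gene. Gse1 (9.52) lies near the top of the cloud, Auts2 (4.72) lies above the other genes of its length, and Macrod2 (1.58) lies lower at the right.

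Genes with a span of at least 1 Mb were mostly sparse in regions, and Auts2 was an exception. Among the 2256 genes with a territory of at least 200 kb, the median density was 1.24 regions per 100 kb (quartiles 0.447 and 2.29), and 374 genes had 0 regions. The median over all protein-coding genes was lower, at 0.879. Gse1 ranked 3 in this set, after Tle3 (11.0 per 100 kb), a Groucho-family corepressor, and Foxa2 (9.80), the forkhead factor of endoderm. Aff1, with 30 regions at 16.3 per 100 kb, was denser than all of these but has a territory of 184 kb. Auts2 ranked 80, Asic2 282 and Macrod2 889. Among the 59 genes whose span is at least 1 Mb, where the median density was 0.779, Auts2 ranked 1, Asic2 2 and Macrod2 10. By number of regions Auts2 came first of all genes with 60, and Gse1 and Asic2 had 36 each. Macrod2 and Asic2 were thus not sparse for their length: both were above the median of genes of 1 Mb or more.

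**Figure D3:**
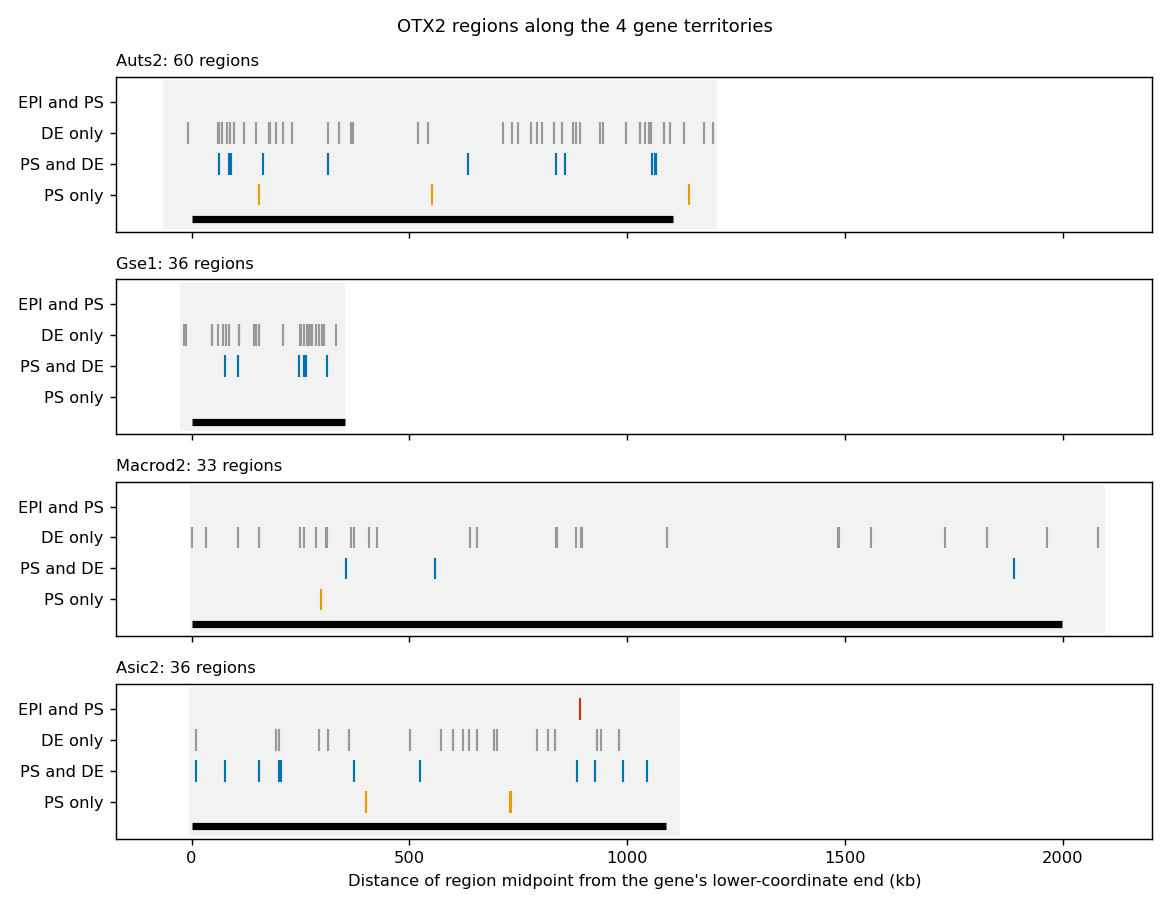
Position of every region along the 4 territories, as distance of its midpoint from the gene's lower-coordinate end in kb (horizontal axis, the same scale in each panel), with 1 row per region list, the gene span as a black bar and the territory in grey. Regions of Auts2 are thin in the middle of the gene, and 15 of the 36 regions of Gse1 crowd into 50 kb of its upper part.

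Regions of Auts2 lay toward both ends of the gene and were sparse in its middle. Of its 60 regions 55 lay inside the span, with 23 in the lower 369 kb by coordinate, 7 in the middle 369 kb and 25 in the upper 369 kb. The 11 PS and DE regions, all inside the span, fell 5, 1 and 5 over the same stretches. The longest stretch without a region, 148 kb, ran from 131808123 to 131956255. The densest 50 kb held 9 regions, 3 of PS and DE and 6 of DE only, between 131497227 and 131534061. A second group near the upper end held 3 PS and DE regions within about 10 kb, at 132494307 to 132494541, 132500831 to 132501187 and 132502983 to 132503148. Of the 46 DE only regions of Auts2, 30 had a region of the PS and DE list no more than 50 kb away, which holds for 35.0% of all assigned DE only regions.

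Gse1 held its regions in a much tighter arrangement. The median gap between neighbouring regions was 3.92 kb, against 12.1 kb in Auts2, 23.5 kb in Asic2 and 39.7 kb in Macrod2, and 12.7 kb over all neighbours assigned to one gene. Within 5 kb of another region of the same gene lay 27 of the 36 regions of Gse1, 21 of the 60 of Auts2, 11 of the 36 of Asic2 and 9 of the 33 of Macrod2, beside 35.6% of all assigned regions. A PS and DE region lay no more than 50 kb from all 29 DE only regions of Gse1, 9 of 21 of Asic2 and 4 of 29 of Macrod2. Over all assigned DE only regions this share was 35.0%. These measures depend on how many regions a gene holds in how long a territory. The 4 genes were chosen with those counts known, so the measures add no independent support.

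A single stretch carried much of the count at Gse1. The densest 50 kb held 15 of its 36 regions, 4 of PS and DE and 11 of DE only, between 120475609 and 120521304. Within it, 10 regions followed each other at gaps of at most 5 kb over 18.6 kb (120486602 to 120505238), 3 of PS and DE and 7 of DE only. The PS and DE regions of this run lay at 120487156 to 120487397, 120488272 to 120488400 and 120490748 to 120491118, on both sides of the first annotated start printed above, at 120488866. That start lies inside the gene span and not at its upstream end. Of 39615 windows of 50 kb that begin at a region, 0.0303% held 15 or more regions, and the fullest held 19. These shares only describe how full the windows were, since each gene's fullest window is set against all windows and Auts2 and Gse1 were chosen by their counts. The densest window of Auts2, with 9, was matched or exceeded by 0.568% of windows, while those of Asic2 (5) and Macrod2 (4) were matched or exceeded by 10.9% and 21.1%. Without its densest 50 kb Gse1 still had 6.40 regions per 100 kb, above the 4.18 of Auts2 treated in the same way.

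The remaining regions of Gse1 were spread over the gene, with 10 of the 34 inside the span in its lower 118 kb by coordinate, 5 in the middle and 19 in the upper 118 kb, which contains the run described above. Its other PS and DE regions lay at 120304220 to 120304352, 120335723 to 120335957, 120475609 to 120475785 and 120538455 to 120538660. None of its 8 windows of 50 kb counted from the start of the territory was empty, whereas 5 of 26 were empty in Auts2, 5 of 23 in Asic2 and 23 of 43 in Macrod2.

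In Macrod2, regions were most frequent in the lower 666 kb by coordinate, where Flrt3 lies. This stretch held 18 of the 32 regions inside the span, and the middle and upper stretches of the same length held 7 each. The longest empty stretch, 391 kb, lay between 141487444 and 141878502. Flrt3, which encodes a leucine-rich transmembrane protein of early embryos, lies wholly inside Macrod2 (140658198 to 140671476). It had 2 DE only regions of its own, which the rule gives to the shorter gene, or 15.1 per 100 kb on a territory of 13.3 kb. Within 100 kb of either end of Flrt3 lay 9 of the 33 regions counted for Macrod2, and 6 lay within 50 kb. The regions of Asic2 were spread about evenly, with 11, 12 and 13 in its lower, middle and upper 363 kb, all 36 inside the span, and a longest gap of 101 kb. The gene 1700071K01Rik, inside Asic2, had 0 regions.

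The nearest genes on either side had lower densities than the member of the 4 they flank. Galnt17, a glycosyltransferase gene below Auts2, had 12 regions at 2.34 per 100 kb, and Castor2, which is 1557 kb above it, had 4. Beside Gse1, Cibar2 had 2 regions, at 5.38 per 100 kb, and Gins2, a gene of the replicative helicase that overlaps its upper end, had 0. Sel1l2 (1 region) and Kif16b (6 regions) flank Macrod2, and Spaca3 and the chemokine gene Ccl2, which flank Asic2, had 0 each. The territories of Gins2, Spaca3 and Ccl2 are 17.6, 33.8 and 39.6 kb, so a count of 0 there says little. At the edge of the 100 kb limit, the last region counted for Auts2 lay 90.7 kb above the gene (132633855 to 132633974) and the next one, at 100.4 kb (132643515 to 132643649), was counted for no gene.

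**Figure D4:**
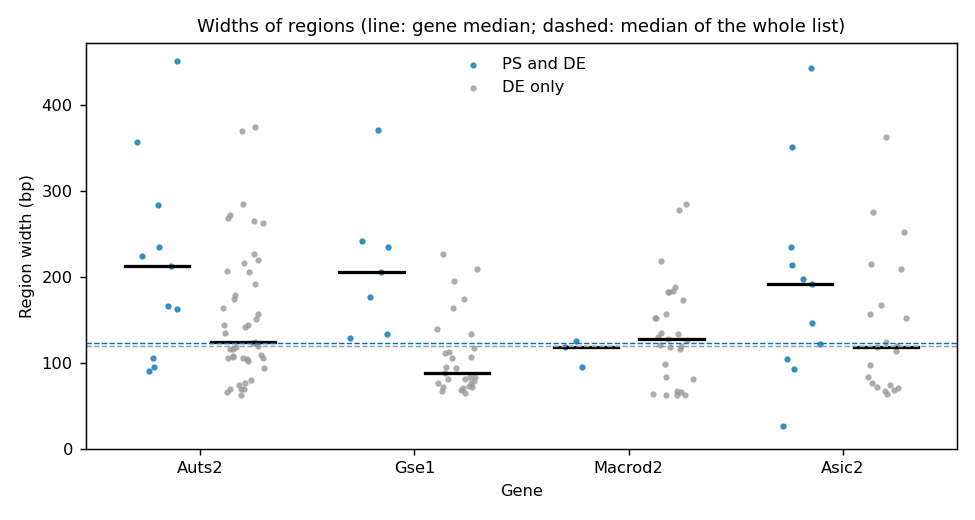
Width in bp (vertical axis) of each PS and DE region (blue) and DE only region (grey) by gene, with the gene's median as a black line and the median of the whole list as a dashed line (123 and 119 bp). In Gse1 the 7 PS and DE regions, at 129 to 371 bp, all exceed the DE only median of 88.0 bp.

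Region width was not used to choose the genes, and it differed between lists within them. In Gse1 the PS and DE regions were 129 to 371 bp wide with a median of 206 bp, and the DE only regions 65 to 226 bp with a median of 88.0 bp. The ranges overlap. The medians of the whole lists were 123 bp and 119 bp, so shared regions of Gse1 were wide and its DE only regions narrow for their list. In Auts2 the PS and DE regions (90 to 451 bp, median 213 bp) were also wider than the list median, and the DE only regions (63 to 374 bp, median 124 bp) were near it. The widest, a PS and DE region at 131523982 to 131524432, was wider than 99.4% of its list. Asic2 showed the same order, with 192 bp for PS and DE (27 to 443 bp) and 118 bp for DE only (64 to 362 bp). In Macrod2 the 3 PS and DE regions had 95, 118 and 125 bp, and the DE only median was 128 bp. The narrowest region of the whole PS and DE list had 2 bp and that of the DE only list 62 bp, so the lists were not made with one minimum width, and the part of this in the widths was not tested.

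The genes most like Auts2 and Gse1 in their pattern were found by the smallest sum, over the 4 lists, of absolute differences in regions per 100 kb, among the 2256 genes with long territories. For Auts2 they were Agtpbp1 (sum 0.285), Rbpj (0.290), the DNA-binding effector of Notch signals, Rapgef5 (0.338), Fam204a (0.340) and the zinc finger gene Sall1 (0.361). These genes had 10 to 17 regions each, so their densities rest on far fewer regions than that of Auts2. For Gse1 the nearest were Rbm20 (1.13), an RNA-binding splicing regulator, Bmp2 (2.02), a BMP ligand, Eya2, Prdm1 (2.93), which encodes a transcriptional repressor, and Tle3 (2.97). Rbm20 had 2 PS and DE and 17 DE only regions, 8.80 per 100 kb in all. The sums were larger than for Auts2, as were the densities compared.

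Genes that encode partners or relatives of the 4 proteins varied widely. In the AUTS2 family, Fbrsl1 had 8 regions at 5.82 per 100 kb, 7 of them DE only and 1 PS only, and Fbrs had 0. Of 10 partners in the PRC1 complex, 5 had a DE only region and 1 had a PS and DE region, near the shares over all genes (50.1% and 16.3%). Rybp, which links PRC1 to chromatin, held most of them, with 16 regions at 6.18 per 100 kb, followed by Pcgf5 with 3 and Csnk2a1, a catalytic subunit of casein kinase, with 2, and Rnf2, the ubiquitin ligase of the complex, had 0. Of 11 genes of the LSD1, CoREST and histone deacetylase complex, 9 had a DE only region, against 50.1% of all genes, and 1 had a PS and DE region. Hdac2, a deacetylase gene of the complex, had 3 regions, and Kdm1a, the gene of LSD1 itself, had 1. The summed density of the LSD1 complex was 1.83 per 100 kb, beside 1.81 over all genes. The median over genes was 1.47 for it and 0.973 for the PRC1 partners, beside 0.879 over all genes.

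Among relatives of the comparison genes, Macrod1 held 6 regions (8.45 per 100 kb) and Oard1, another hydrolase of ADP-ribose, held 2. All 5 acid-sensing channel genes, Asic2 included, had a DE only region, as did 50.1% of all genes. A PS and DE region was found at 3 of them, again including Asic2, and at 16.3% of all genes. Asic4 held 9 regions on a territory of 27.6 kb (32.6 per 100 kb), 3 of PS and DE and 6 of DE only, and Asic1 held 3 (7.36 per 100 kb). Short territories give high densities from few regions, so these values are less precise than those of Asic2.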

How the data were processed

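CUT&RUN for HA-tagged OTX2 was done with anti-HA or IgG on 500000 cells per library, per the labels' protocols. The submitters' processing notes name the mm10 build, MACS2 2.2.6, bedtools 2.30, Picard 2.26.10, SAMtools 1.14 and Bowtie2 2.3.5.1. How peaks were called and filtered, whether IgG was a control and whether libraries were pooled is not given in the sources used here. What the authors deposited is a set of 4 lists of 3 columns (chromosome, start, end), with no score or other value, so depth is unknown and no library could be averaged or left out.

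Coordinates are given 1-based, and 2 regions on an unplaced scaffold were left unassigned. Gene spans and promoter windows came from RefSeq tables (GRCm38.p6). All gene names of the lists matched. Assignment, territories, densities per 100 kb, exact Poisson and Wilson intervals (95%), gaps and 50 kb windows were computed with Python 3.11.15, numpy 2.4.6 and scipy 1.17.1. The assignment was tested on 2000 random positions against a direct search, with 0 mismatches. No test was run, since regions are not replicates and all 4 genes were chosen with their counts known. The genes and gene lists were chosen with earlier results of these data known. Named genes are the 4 genes, their neighbours and the genes inside them, the 5 most like Auts2 and Gse1, up to 4 per gene list with the most regions and the 3 with the most regions. Genes ranked beside the 4 (Tle3, Foxa2), Aff1, Kdm1a and listed genes with 0 regions were named after their values were seen. Some genes that the rule names are not reported here.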

Additional observations from a re-analysis of the deposited data

How the results depend on the processing

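Alternative ways of counting were applied to the density of each gene. The order Gse1, Auts2, Asic2, Macrod2 held in the main counts and under each of the 9 alternatives run, although with the nearest gene end only Gse1 (6.95) and Auts2 (6.85) were nearly equal. Of the 36 alternative densities 27 stayed within the Poisson interval of the main value. Some of the 27 did not change at all, so this count overstates stability. Counting any base inside the span left all 4 densities as they were. Assignment within 50 kb or 1 Mb left those of Gse1 (9.52) and Asic2 (3.19) unchanged. Assignment within 1 Mb gave 3.44 regions per 100 kb for Auts2, where the added flanks lengthen the territory from 1271 to 1949 kb for 7 more regions. Assignment to the nearest gene end only, which drops the inner part of long genes, gave 6.85 for Auts2 and 2.09 for Asic2. With clusters within 5 kb counted as 1, Gse1 had 4.49, and without the densest 50 kb it had 6.40. With regions of at least 150 bp only, all 4 fell below the interval, to 2.12 (Auts2), 2.64 (Gse1), 0.527 (Macrod2) and 1.42 (Asic2). This filter can only lower a density, and how far depends on how many regions of a gene are wide. The PS and DE share moved in 4 of 12 alternatives, to 5 of 10 regions at Gse1 and 0 of 11 at Macrod2 with at least 150 bp, and to 4 of 5 at Asic2 and 0 of 4 at Macrod2 with the nearest gene end.

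Region height, mappability and depth were not available, so a dense gene cannot be told apart from one where more regions were detected. No paired analysis was possible because the lists hold no value per library.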

Other observations

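Noncoding genes inside the Gse1 territory carried 7 of its 36 regions. The run of regions around the inner Gse1 start at 120488866 overlapped the lncRNA gene Gm51556 (120487277 to 120490453), which 2 PS and DE regions overlapped. Gm32968 (120327677 to 120339024) overlapped 1 PS and DE and 2 DE only regions, and A330074K22Rik (120204434 to 120228230), just below Gse1, overlapped both regions that lay outside the gene span. The microRNA gene Mir7687 (120538696 to 120538754) was separated by 35 bases from a PS and DE region (120538455 to 120538660). None of the 60 regions of Auts2 overlapped a noncoding gene of the annotation. The share of all assigned regions that overlap a noncoding gene was not computed. Nor was the part of each territory that such genes cover, so no difference between Gse1 and Auts2 is read from these counts.

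In Asic2, 2 regions overlapped the lncRNA gene 5530401A14Rik (81860677 to 81894582), 1 of them also Gm46254, and 1 PS and DE region (81254369 to 81254582) overlapped Gm42084. The Macrod2 territory had 1 such overlap, a DE only region in Gm39948. The lists give no strand or expression, so these overlaps are positions only.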
